A study of Drosophila melanogaster with 2 samples.

Results

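In a chromatin immunoprecipitation of the GATA family factor GATAd, 2953 sites of intermediate signal scored below the reproducible peak list. They were chosen by the signal that the authors' pooled call on the Drosophila melanogaster build dm6 gave them, 25 or more, and by overlapping no listed peak by 1 bp. The pooled call holds 30000 candidates, background included, and 4237 of them reached 25. Of those, 1205 made up the thresholded list of the irreproducible discovery rate (IDR), a method that compares ranks between replicates, 79 overlapped an IDR peak without being listed, and 2953 remained. These 2953 are called sub-list candidates here, the 1205 IDR peaks, and the 25655 candidates under 25 that overlap no IDR peak weaker candidates. The IDR peaks were exactly the 1205 candidates of highest pooled signal, so the sets are successive bands of pooled signal. Each comparison between them is also one between higher and lower pooled signal.

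The material was whole wandering larvae of the third instar, males and females pooled, age unknown. They came from a stable transgenic line, named GATAd-GFP, that makes GATAd with green fluorescent protein (labelled eGFP in one field) fused to its C terminus. Chromatin was sheared with a Bioruptor and precipitated with an antibody against GFP; another field of the labels gives the antibody as GATAd. There was 1 group with 2 biological replicates, numbered 2 and 3, and no other genotype or stage. The labels used here do not say which regulatory sequence drives the transgene. In whole larvae, weak binding in many cells and strong binding in few cells cannot be told apart. The read depth of the libraries is unknown, so no value below has an interval for read counting, and every interval on a share reflects only how many sites were counted.

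GATA factors are zinc finger proteins that bind the word GATA flanked by A or T before and A or G after, written WGATAR. GATAd is a less studied member of the fly family, next to pannier (pnr), serpent (srp), grain (grn) and GATAe, which act in heart, blood, nervous system and gut. The DNA replication-related element (DRE, TATCGATA) is a promoter word of housekeeping genes and is read by the factor Dref. The GATA inside DRE follows a C, so a DRE is not itself a WGATAR match.

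Sequences of 6 sub-list candidates show these words, each as 201 bases centred on the summit, on the plus strand of the Release 6 reference sequence from RefSeq, to which dm6 corresponds. The first pair, in an intron of rols (chr3L:12053788-12053988) and 93 bp from a transcription start site (TSS) of CG5004 (chrX:17130230-17130430), each have 2 WGATAR words. The next pair, at B52 (chr3R:13661179-13661379) and Su(H) (chr2L:15039334-15039534), hold a DRE at a promoter. The last pair, at CG46310 (chr3R:23173623-23173823) and Msr-110 (chr3L:5577674-5577874), ranked highest in both replicates at once. Capitals mark WGATAR and DRE on either strand.
rols: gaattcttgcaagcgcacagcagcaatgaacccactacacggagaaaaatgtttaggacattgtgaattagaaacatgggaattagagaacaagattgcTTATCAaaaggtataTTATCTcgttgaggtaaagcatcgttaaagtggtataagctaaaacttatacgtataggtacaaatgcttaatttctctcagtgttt
CG5004: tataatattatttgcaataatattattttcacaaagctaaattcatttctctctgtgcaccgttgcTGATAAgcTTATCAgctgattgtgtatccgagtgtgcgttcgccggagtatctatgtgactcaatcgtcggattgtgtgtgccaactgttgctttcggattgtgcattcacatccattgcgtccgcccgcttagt
B52: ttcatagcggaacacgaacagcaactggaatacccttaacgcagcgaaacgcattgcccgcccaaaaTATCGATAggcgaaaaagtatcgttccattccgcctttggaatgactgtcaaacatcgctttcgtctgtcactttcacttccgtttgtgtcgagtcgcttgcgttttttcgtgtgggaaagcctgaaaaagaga
Su(H): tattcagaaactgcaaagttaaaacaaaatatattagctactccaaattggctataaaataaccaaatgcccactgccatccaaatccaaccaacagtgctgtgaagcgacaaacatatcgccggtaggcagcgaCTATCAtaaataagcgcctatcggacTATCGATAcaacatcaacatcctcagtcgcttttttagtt
CG46310: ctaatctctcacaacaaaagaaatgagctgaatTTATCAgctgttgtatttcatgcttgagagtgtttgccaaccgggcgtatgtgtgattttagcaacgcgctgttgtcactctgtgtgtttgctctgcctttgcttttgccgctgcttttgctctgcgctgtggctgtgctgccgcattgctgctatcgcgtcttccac
Msr-110: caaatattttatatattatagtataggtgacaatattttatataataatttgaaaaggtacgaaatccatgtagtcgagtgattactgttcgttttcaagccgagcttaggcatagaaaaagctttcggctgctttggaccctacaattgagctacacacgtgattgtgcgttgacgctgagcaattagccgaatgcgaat
In the CG5004 window the 2 WGATAR words face each other with 2 bases between them. The Msr-110 window holds neither word.

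The signal is the authors' value of enrichment over the control for each candidate, on a scale that is not stated, and it chose these sites. It ran from 25.0061 to 43.9402 with a median of 29.0, and no test is made on it. At the upper edge the strongest sub-list candidate, 236 bp from a TSS of the cytochrome P450 gene Cyp6v1 on X, had 43.9402, and the weakest IDR peak, in an intron of Nuak on 3R, had 43.9461. The neighbouring IDR peaks lay at ph-d (44.0519) and Mef2 (44.0571). At the lower edge the weakest sub-list candidates lay at CG42445 (25.0082), RFeSP (25.0068) and CG15646 (25.0061), and the candidates just under the threshold at CG42713 (24.9986), CG43050 (24.9977) and CG5906 (24.9936). All 2953 were 384 bp wide, and 53 neighbouring pairs overlapped each other.

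Sub-list candidates lay at promoters less often than IDR peaks and more often than weaker candidates. The summit lay no more than 1 kb from the TSS of a protein-coding gene in 1192 of 2953 (40.4%, Wilson 95% interval 38.6 to 42.1), in 841 of the 1205 IDR peaks (69.8%, 67.1 to 72.3) and in 5277 of the 25655 weaker candidates (20.6%, 20.1 to 21.1). The odds ratio of sub-list candidates was 0.293 against IDR peaks (95% interval 0.254 to 0.338, Fisher's exact test, adjusted p = 9.32e-67) and 2.61 against weaker candidates (2.41 to 2.83, adjusted p = 2.8e-115). Against the weaker 50% of IDR peaks by signal it was 0.367 (Fisher's exact adjusted p = 2.16e-27). Against all IDR peaks it was 0.193 with sites taken down to a signal of 20 and 0.418 with sites of 30 or more. Adjustment was by Benjamini-Hochberg over 12 tests, 6 position classes against each of the other sets. Neighbouring sites share chromatin and genes and are not independent, so these p-values are smaller than independent sites would give.

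The sites away from promoters lay mostly in introns. Introns held 1057 sub-list summits (35.8%), against 20.7% of IDR peaks (odds ratio 2.13, Fisher's exact adjusted p = 1.07e-21) and 41.3% of weaker candidates (0.794, adjusted p = 1.26e-08). The second of these ended when replicate 2 alone supplied the candidates of the same ranks (odds ratio 0.943, Fisher's exact adjusted p = 0.174). Sequence between genes held 507 (17.2%), against 8.55% of IDR peaks (2.22, Fisher's exact adjusted p = 2.83e-13) and 24.2% of weaker candidates (0.649, adjusted p = 3.27e-18). Coding exons held 105 (3.56%), where 3 IDR peaks (0.249%) and 8.14% of weaker candidates lay, and 3' UTRs held 77 (2.61%), where 6 IDR peaks (0.498%) and 5.17% of weaker candidates lay. Each of these 4 comparisons passed Fisher's exact test, with adjusted p between 2.26e-12 and 1.37e-06 against IDR peaks and between 1.07e-21 and 8.1e-11 against weaker candidates. For 5' UTRs beyond 1 kb of a TSS, with 15 sites (0.508%), neither comparison passed (Fisher's exact adjusted p = 0.194 and 0.461).

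At promoters the summits gathered just upstream of the TSS. The median distance to the nearest TSS was 181 bp for the 1192 promoter sites, 109 bp for promoter IDR peaks and 385 bp for promoter weaker candidates. The summit lay upstream in 67.1% of the promoter sites, in 80.0238% of promoter IDR peaks (Fisher's exact test, odds ratio 0.509, adjusted p = 3.74e-10) and in 49.9% of promoter weaker candidates (2.05, adjusted p = 2.39e-26). TSSs of genes that diverge from each other lay within 1 kb of 28.7% of the promoter sites. That share was 47.9% at promoter IDR peaks (odds ratio 0.437, Fisher's exact adjusted p = 6.03e-18) and 11.1% at promoter weaker candidates (3.22, adjusted p = 3.16e-46). These tests belong to a family of 27 that was added after the data were seen and adjusted together.

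**Figure D1:**
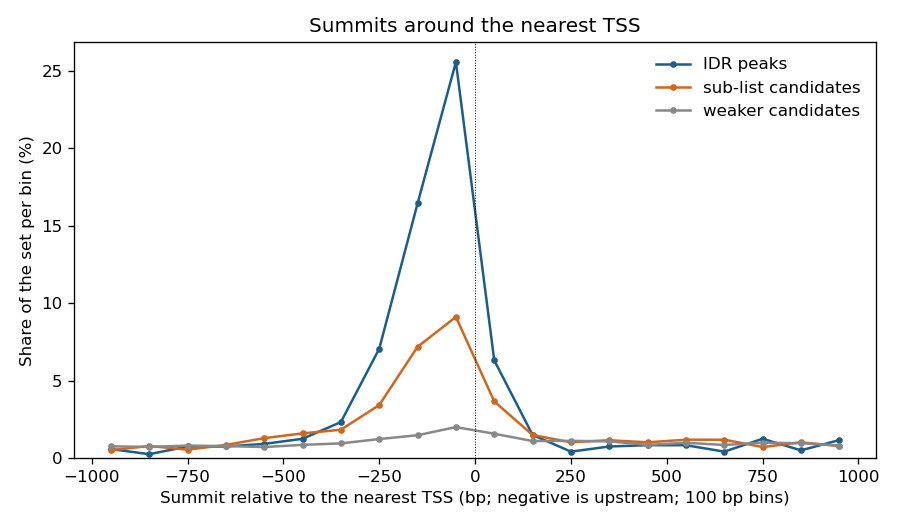
Share of each set (percent, y axis) whose summit falls in each 100 bp bin around the nearest protein-coding TSS (x axis, bp, negative is upstream). All sets peak in the bin just upstream of the TSS, with the sub-list candidates between the IDR peaks and the weaker candidates, and the curves lie close together at the edges of the plot.

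The share at promoters also varied inside the set. In 4 groups of 739 or 738 sites by signal it was 52.6% in the strongest, then 40.8%, 36.4% and 31.6% in the weakest. The 739 weakest IDR peaks had 66.8%, and the 739 strongest weaker candidates had 27.2%. The shares in introns ran the other way, from 31.1% in the strongest group to 39.8% in the weakest. Signal chose the set and its groups, so these shares are given with no test.

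**Figure D2:**
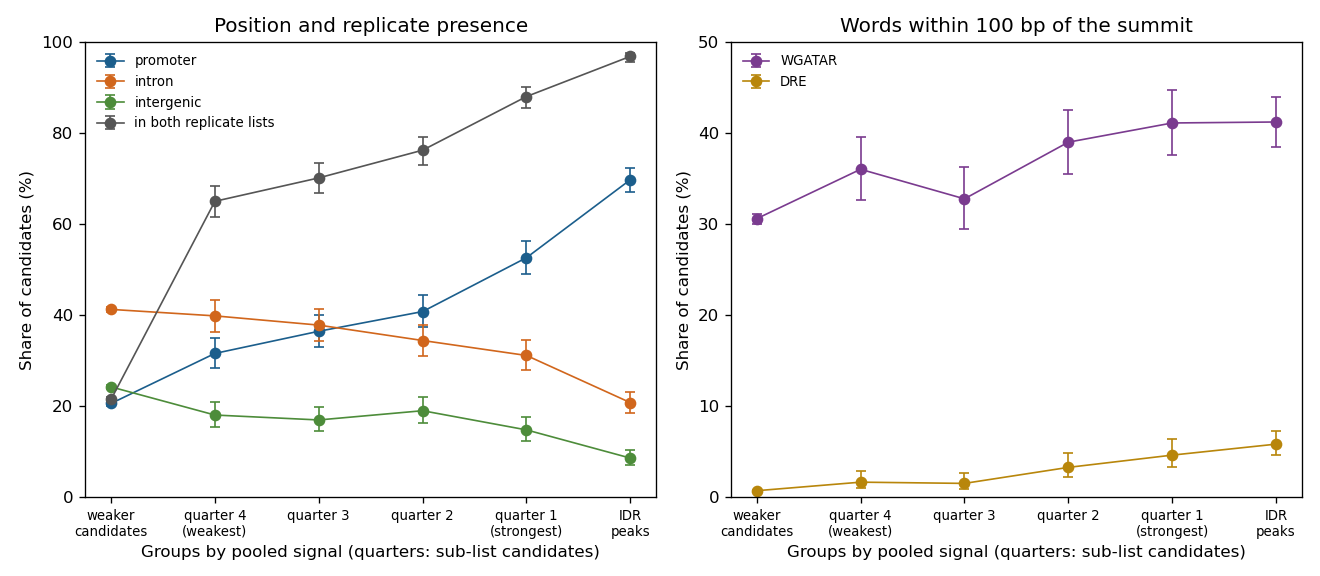
Shares of sites (percent, y axis) in weaker candidates, in 4 groups of sub-list candidates by pooled signal and in IDR peaks (x axis), for position and replicate presence (left) and for words within 100 bp of the summit (right). Points are shares and bars are Wilson 95% intervals; the promoter share rises from 20.6% in weaker candidates to 69.8% in IDR peaks, and the intron share is lowest in IDR peaks.

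Many sub-list candidates lay near IDR peaks without touching them. An IDR summit was within 1 kb of 77, within 5 kb of 476 (16.1%) and within 10 kb of 818. For weaker candidates the share within 5 kb was 7.90% (odds ratio 2.24, 2.01 to 2.50, adjusted p = 1.01e-41 by Fisher's exact test, over the 27 added tests). Leaving out all sites within 1 kb of an IDR summit kept 2876 and changed none of the promoter, intron or intergenic calls.

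Among the 25 of highest signal, 15 had a summit at a promoter, 6 in an intron and 4 between genes. All 25 had a candidate in both replicates, 13 held WGATAR and 0 held DRE. The strongest, at Cyp6v1 (X, 20656694 to 20657077), had a signal of 14.2 in replicate 2 (rank 9021) and 25.2 in replicate 3 (rank 1149). It was thus within the 1205 strongest of replicate 3 and far down the list of replicate 2. The intronic site in rols (3L, 12053696 to 12054079), whose product organises myoblast fusion, had 21.9 in replicate 2 (rank 1810) and 17.8 in replicate 3 (rank 2343), which puts it just below the top of both. The site at the transcription factor gene NFAT (X, 13641019 to 13641402) lay 964 bp from a TSS and had 22.8 (rank 1603) and 28.9 (rank 865).

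Several promoter sites among these 25 were high in 1 replicate and low in the other. The 3 weakest IDR peaks were uneven too. Mef2 ranked 24947 in replicate 2 and 876 in replicate 3, and Nuak 5928 and 790. At ph-d replicate 2 had no candidate and replicate 3 ranked it 413. Orc3, a subunit of the origin recognition complex, had a site 46 bp from its TSS (2R, 13205191 to 13205574) with 36.3 in replicate 2 (rank 583) and 7.06 in replicate 3 (rank 24787). The promoter of rept, a RuvB-like helicase gene (3L, 19255124 to 19255507; 24 bp), which is also within 1 kb of a TSS of mRpL21, had 33.7 (rank 683) and 9.95 (rank 10670). These 2 were high in replicate 2 alone. The mitochondrial ribosomal protein gene mRpS22 (3R, 27916598 to 27916981; 118 bp) went the other way, with 16.8 (rank 4812) and 23.7 (rank 1282), as did the inositol phosphate kinase gene Ip6k (2R, 21645856 to 21646239; 129 bp), with 16.4 (rank 5238) and 23.6 (rank 1293). Cnx99A, which encodes the chaperone calnexin, had 17.3 (rank 4292) and 17.8 (rank 2338) at 68 bp, and su(f), an mRNA 3' end processing gene, had 17.0 (rank 4613) and 19.2 (rank 1981) at 102 bp. Regnase-1, an endoribonuclease gene, had 18.3 (rank 3425) and 22.3 (rank 1437) at 39 bp. The remaining promoter sites were at CG5004, CG8314, CG8142, mthl1, CG6345 and CG13004.

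The other 10 of these 25 lay away from promoters. Introns of gukh, which encodes a partner of the junction protein Dlg, and of Tpr2, a co-chaperone gene, held sites of 43.5332 and 43.506, and both replicates ranked each of them between 1272 and 2678. An intron of skd, a Mediator kinase module gene, held one of 43.4, 15487 bp from the nearest TSS, that of CG12984. Introns of lbk and CG14073 held sites that replicate 3 ranked 775 and 921 and replicate 2 ranked 11901 and 24276. Between genes, sites lay 2003 bp from the arginine kinase gene Argk2, 11789 bp from Reg-2, 4689 bp from CG18404 and 31416 bp from CG12362.

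A candidate in both replicate lists was found for 2212 of the 2953 (74.9%, Wilson 95% interval 73.3 to 76.4). It was found for 30.2% of all 30000 pooled candidates, for 96.9% of IDR peaks and for 21.5% of weaker candidates. Replicate 2 alone had one for 425 (14.4%), replicate 3 alone for 312 (10.6%) and neither for 4. The pool was made from these libraries, and the pooled signal chose the sites, so the shares are descriptions and support nothing about the sites. Each replicate list ends at its own 30000th candidate, at 9.56 in replicate 2 and 6.42 in replicate 3, and a candidate placed next to a pooled one without touching it also counts as missing. A replicate candidate can overlap more than 1 pooled candidate, as for 276 of the sites with a value in replicate 2 and 302 in replicate 3.

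High rank in both replicates at once was uncommon. One of the 4158 strongest of each replicate, as many as IDR peaks and sub-list candidates together, was overlapped in both by 389 (13.2%), against 5.68% of all pooled candidates, 88.5% of IDR peaks and 0.327% of weaker candidates. By replicate, 1437 (48.7%) overlapped one in replicate 2 and 1194 (40.4%) in replicate 3, and 711 overlapped none in either. Taking only the 1205 strongest of each, 8 sites overlapped one in both, 228 in that of replicate 2 and 169 in that of replicate 3. The median signal was 17.7 in replicate 2 and 13.3 in replicate 3 over the sites with a value. Over the 2212 sites with both values Spearman's rho between them was -0.257, and over IDR peaks with both it was 0.395. The sub-list sites all have a pooled signal within a narrow range, which the rule fixes.

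**Figure D3:**
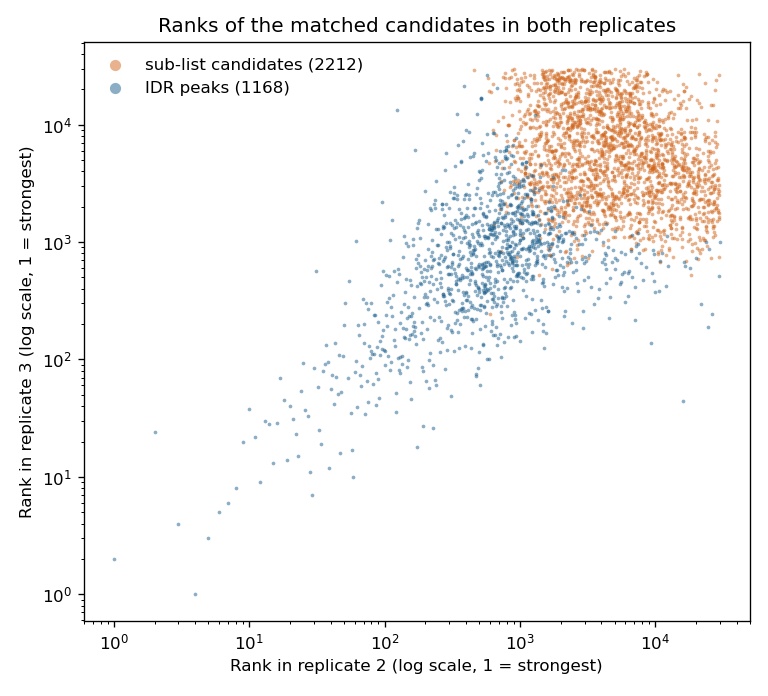
Rank of the matched candidate in replicate 2 (x axis) and replicate 3 (y axis), log scales with 1 the strongest, for the 2212 sub-list candidates and 1168 IDR peaks that have a value in both. The sub-list candidates fill the upper right corner, and those with a high rank in one replicate mostly have a low one in the other. The choice of sites by pooled signal bears on this.

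The 10 sites whose worse rank of both replicates was best lay at genes of differing roles. The site at CG46310, 150 bp from a TSS and inside Irk1, a potassium channel gene, ranked 597 in replicate 2 (signal 35.9) and 245 in replicate 3 (49.4), with a pooled signal of 29.6. The pooled list has 4 overlapping candidates there, of 32.5, 29.6, 16.4 and 19.3, and the replicate candidates overlap 2 of them each. The Msr-110 site (3L, 5577582 to 5577965) had a pooled signal of 43.2, with 32.8 in replicate 2 (rank 723) and 29.2 in replicate 3 (rank 841). Dad, the inhibitory Smad of Dpp signalling (3R, 17053405 to 17053788; 410 bp), had 28.4 (rank 954) and 31.1 (rank 744). The promoter of prtp, an apoptotic cell recognition gene (X, 11716510 to 11716893; 54 bp), had 27.5 (rank 1031) and 25.6 (rank 1115). By the nearest summit, which sets these ranks, 4 sites are inside the 1205 strongest of both replicates, while the count of 8 above took any overlap. SsRbeta, a subunit of the translocon-associated complex, followed with ranks of 1384 and 525, and trbl, a pseudokinase gene, with 642 and 1401. Then came the metalloprotease gene tok (1418 and 1072), the nocturnin gene cu (1430 and 1434), CG31886 (996 and 1457) and Snx27, a sorting nexin gene (1520 and 1281). The site at cu held 6 WGATAR words within 100 bp, more than any other of the 2953.

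Some sites of high pooled signal were missing from one list. Replicate 2 had no candidate at CG5013 (pooled signal 43.1, rank 578 in replicate 3), in an intron of mol (43.0017, rank 439), 6247 bp from CG7320 (42.6, rank 596), in an intron of Tlk, a kinase gene (41.9, rank 2226), and 5896 bp from CG14362 (41.9, rank 629). Replicate 3 had none at the promoter of Brca2, a DNA repair gene (41.5, rank 458 in replicate 2), 3009 bp from lsn (41.1, rank 454) and at the promoters of CG4004 (41.1, rank 710), Gdap2 (40.8, rank 584) and Taz (40.6, rank 1488). The 4 sites in neither list were at the promoters of Gmppb (37.1), the nuclear receptor gene Hnf4 (31.1) and CG15201 (29.0), and in a coding exon of the calcium pump gene PMCA (26.5). With 1 library per replicate, none of these differences has a test.

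Sites found in 1 replicate only are described by replicate. Tests between these groups are among the 27 added ones and are not reported, since each replicate is 1 library. The summit was at a promoter in 49.7% of the 312 sites with a candidate in replicate 3 only, in 40.8% of the 2212 in both and in 30.8% of the 425 in replicate 2 only. WGATAR was at 39.7%, 38.0199% and 31.3% of these groups in the same order, and DRE at 3.53%, 2.80% and 1.88%. The control word CCNGG, with A or T at N, ran the other way, at 12.5%, 16.0036% and 19.3%. GC content moved with these groups. Its mean within 100 bp of the summit was 42.9% ± 6.99 (SD over sites) in replicate 2 only, 38.6% ± 7.35 in both and 35.8% ± 7.58 in replicate 3 only. The same order held in the weaker candidates (43.0%, 40.6% and 39.0%), and the full replicate lists had 42.8% ± 7.93 in replicate 2 and 38.5% ± 8.35 in replicate 3. The part of base composition in the differences of position and of WGATAR between these groups was not tested.

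**Figure D4:**
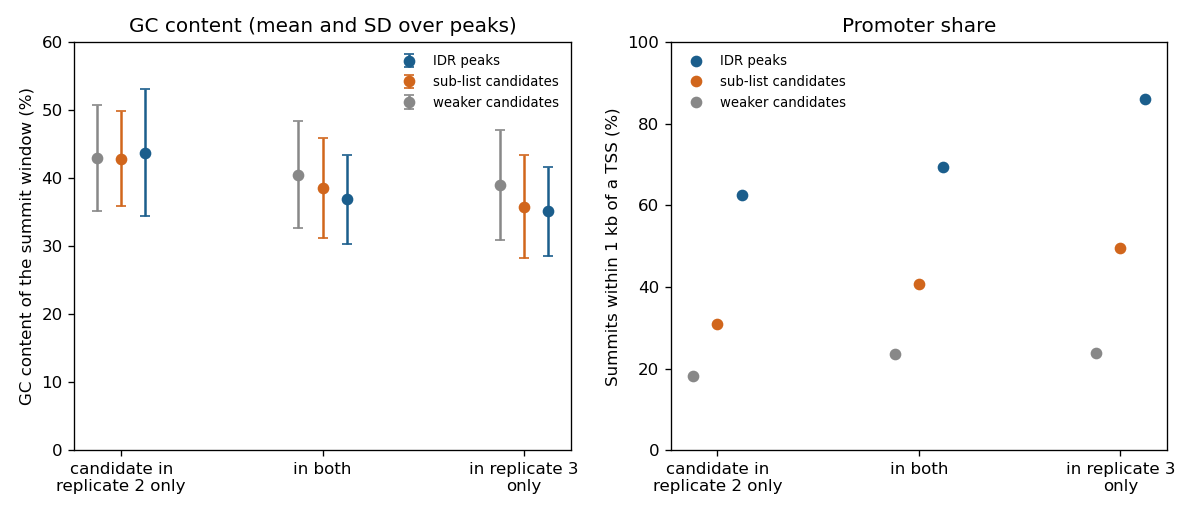
GC content of the 201 bp summit windows (left, percent, mean with SD over sites) and share of summits within 1 kb of a TSS (right, percent) for sites with a candidate in replicate 2 only, in both or in replicate 3 only (x axis), in IDR peaks, sub-list candidates and weaker candidates. In each of these 3 sets GC content is highest in replicate 2 only, and IDR peaks in 1 replicate only number 8 and 29.

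WGATAR lay within 100 bp of 1100 sub-list summits (37.3%, Wilson 95% interval 35.5 to 39.0), and 307 of these sites held 2 or more. Over all pooled candidates the share was 31.7%. Windows of the same width 1 kb toward higher coordinates held it in 31.2% of cases (exact McNemar test, 734 summits only and 556 flanks only, adjusted p = 1.8e-06 over 9 words), and those toward lower coordinates in 32.3% (adjusted p = 0.000187). Among candidates of the same ranks in replicate 2 alone the ratio of summits only to flanks only fell to 1.05 and the call ended (exact McNemar adjusted p = 0.558), while in replicate 3 alone it was 1.35 (adjusted p = 1.29e-06). Summits had a mean GC content of 38.9% ± 7.54 (SD over sites) and flanks of 41.9% ± 9.14, and its part in the difference was not tested. Of the single forms, TGATAA stood in 18.5% of summit windows and 13.2% of flank windows (exact McNemar adjusted p = 1.83e-07), and AGATAA at 13.6% and 12.2% (adjusted p = 0.170).

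WGATAR was more frequent than in weaker candidates, and its difference from IDR peaks moved with the setting. In weaker candidates the share was 30.6% (odds ratio 1.35, 1.24 to 1.46, adjusted p = 2.32e-12 by Fisher's exact test, over 18 tests), and over 10 groups of GC content the odds ratio was 1.23 (1.13 to 1.33, Mantel-Haenszel adjusted p = 1.76e-06). IDR peaks held it in 41.2% (odds ratio 0.846, 0.738 to 0.970, Fisher's exact adjusted p = 0.0253), a call that ended over GC groups (0.886, 0.772 to 1.02, adjusted p = 0.127), with sites of 30 or more (0.968, adjusted p = 0.856), with windows of 200 bp (0.896, adjusted p = 0.161) and with replicate 3 alone (0.888, adjusted p = 0.142). It was larger with a signal threshold of 20 (0.736, Fisher's exact adjusted p = 3.39e-06) and with replicate 2 alone (0.662, adjusted p = 4.87e-08). Where a replicate stood alone, here and below, it supplied the sub-list and weaker candidates, and the IDR peaks remained those of both replicates. In the pooled candidates at promoters the WGATAR shares were 40.6% and 40.9% (odds ratio 0.988, 0.825 to 1.18, Fisher's exact adjusted p = 0.963). Away from promoters they were 35.0% and 42.0% (0.742, 0.589 to 0.934, Fisher's exact adjusted p = 0.0213). Whether these last 2 odds ratios differ was not tested. Among the sub-list candidates themselves the word was at 40.6% of promoter sites and 35.0% of the others (1.27, 1.09 to 1.48, Fisher's exact adjusted p = 0.00489).

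DRE was at 81 sub-list summits (2.74%, Wilson 95% interval 2.21 to 3.40), 18 flanks (0.610%), 5.81% of IDR peaks and 0.686% of weaker candidates. Over all pooled candidates its share was 1.12%. The difference passed against flanks (80 summits only and 17 flanks only, exact McNemar adjusted p = 5.41e-10), against weaker candidates (Fisher's exact test, odds ratio 4.08, 3.13 to 5.33, adjusted p = 1.61e-19) and against IDR peaks (0.457, 0.330 to 0.634, adjusted p = 1.45e-05). With replicate 2 alone the 3 ratios were 2.80, 2.35 and 0.248, and with replicate 3 alone they were 5.88, 3.69 and 0.593. With sites down to a signal of 20 they were 2.65, 2.55 and 0.265. The call against IDR peaks ended with sites of 30 or more (0.715, Fisher's exact adjusted p = 0.159) and with windows of 50 bp (0.613, adjusted p = 0.0704). At promoters DRE was at 6.12% of sub-list candidates and 8.09% of IDR peaks (0.742, 0.526 to 1.04, Fisher's exact adjusted p = 0.139), against 1.57% of weaker candidates (4.08, 2.96 to 5.63, adjusted p = 9.86e-16). Away from promoters DRE was at 0.454% of sub-list candidates, 0.549% of IDR peaks and 0.456% of weaker candidates. The odds ratios there were 0.826 against IDR peaks and 0.995 against weaker candidates, and neither passed Fisher's exact test. The 5 strongest sites with DRE were at B52, an SR splicing factor gene (43.2312), Su(H), the DNA-binding factor of Notch signalling (42.991), CG5645 (42.7), snRNP-U1-C, a U1 snRNP gene (42.5), and 14684 bp from CG15452 (41.6). In the B52 and Su(H) sequences printed above, the DRE stands in capitals.

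The other words searched, on both strands, were GAGAG (GAGA factor), CACGTG and CAGCTG (E-boxes), the AP-1 site TGANTCA with C or G at N, and the control word CCNGG with A or T at N. They lay in 20.9%, 2.39%, 8.62%, 1.72% and 20.1% of the windows of all pooled candidates. CCNGG, all of G and C but for its centre, stood in 16.1% of summit windows and 21.5% of flank windows (exact McNemar adjusted p = 1.94e-07). Its odds ratio was 1.39 against IDR peaks (Fisher's exact adjusted p = 0.00282) and 0.721 against weaker candidates (adjusted p = 6.48e-10), and neither passed over GC groups (1.17 and 0.896, Mantel-Haenszel adjusted p = 0.175 and 0.0710). CAGCTG was at 9.85%, against 13.1% of IDR peaks (odds ratio 0.724, Fisher's exact adjusted p = 0.0055) and 8.24% of weaker candidates (1.22, adjusted p = 0.00651), but its share in flanks was 8.36% and did not pass (exact McNemar adjusted p = 0.0875). GAGAG was at 21.7%, against 25.2% of IDR peaks (0.820, Fisher's exact adjusted p = 0.0235) and 20.6% of weaker candidates (1.07, adjusted p = 0.227), and over GC groups both passed (0.752 and 1.16, Mantel-Haenszel adjusted p = 0.00116 and 0.00326). CACGTG and AP-1 passed no comparison. A word in a window is a description, and its absence says only that these letters are not there.

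By chromosome arm, 3L held 726 sub-list candidates, 3R 707, 2L 529, X 478, 2R 476 and chromosome 4 held 37. Arm 3L had 24.6% of them and 20.2% of IDR peaks (odds ratio 1.29, 1.10 to 1.52, adjusted p = 0.0127 by Fisher's exact test, over 6 arms). Chromosome 4 had 1.25% and 0.332%, the latter being 4 IDR peaks (3.81, 1.35 to 10.7, Fisher's exact adjusted p = 0.0150). The X had 16.2% and 19.1% (0.819, 0.688 to 0.974, Fisher's exact adjusted p = 0.0517), which missed the threshold, and passed without the sites within 1 kb of an IDR summit (0.799, adjusted p = 0.0264), with a signal threshold of 20 (0.691, adjusted p = 4.63e-05) and with either replicate alone. With a signal threshold of 30 the odds ratio was 0.955 (Fisher's exact adjusted p = 0.681). Weaker candidates had 22.0% on 3L, 1.68% on chromosome 4 and 14.3% on X. These make up 21.0%, 1.01% and 17.6% of the length of the arms.

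Sub-list and IDR summits shared promoters about as often as their shares of all genes. Of 13945 protein-coding genes, 1470 (10.5%) had a sub-list summit no more than 1 kb from a TSS, and 1225 (8.78%) had an IDR summit there. The 119 genes with both were 8.10% of the first and 9.71% of the second, and 1351 had a sub-list candidate and no IDR peak. A candidate that overlaps an IDR peak cannot be in the set, which bears on this overlap. Of 25 gene lists, each is given by its count beside these shares, with no test. A gene counts when any of its TSSs is within 1 kb of a summit, and the nearest TSS can belong to a neighbour.

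Ribosomal and mitochondrial lists held genes with sub-list candidates and genes with IDR peaks. An IDR peak was at 21 of 91 cytoplasmic and 12 of 73 mitochondrial ribosomal protein genes, and at 10 of 89 oxidative phosphorylation genes. Over all 1470 genes with a sub-list candidate, 91.9% had no IDR peak. Of the 91 cytoplasmic ribosomal protein genes 19 (20.9%) had a sub-list candidate, led by RpLP0 (37.1) and RpS6 (36.8), and 16 of the 19 had no IDR peak. Of 73 mitochondrial ribosomal protein genes 12 (16.4%) had one, led by mRpL21 and mRpS22 (43.3961 and 43.3839), and 11 had no IDR peak. Of 89 genes of oxidative phosphorylation 11 (12.4%) had one, led by ND-MWFE (42.5) and by COX7C and COX7CL, which share a site of 36.5. Vacuolar proton pump genes had 5 of 33 (15.2%), with Vha68-1 at 38.2 and Vha55 at 31.2. The share was 4.17% of 48 proteasome genes (Rpt1, 32.7; Rpt6R, 27.4), 6.06% of 33 aminoacyl-tRNA synthetase genes (ThrRS, 40.7; ArgRS, 29.8) and 5.77% of 52 translation factor genes (eEF2, 29.6; eEF1beta, 27.9), all below the 10.5% of all genes. In the same order these lists had 2, 2 and 3 genes with a sub-list candidate. They had 2, 6 and 5 genes with an IDR peak (4.17%, 18.2% and 9.62%), beside 8.78% of all genes. Sub-list candidates were at 5 of 45 Mediator and TFIID genes, led by MED25 (40.1) and MED4 (31.3). The nearest TSS was that of a neighbour at RpS6 (bys, 3 bp), mRpL21 (rept, 24 bp) and ND-MWFE (TppII, 19 bp). A neighbour was also nearest at ThrRS (Patsas, 164 bp), ArgRS (CG8578, 103 bp), eEF1beta (Psi, 124 bp) and MED25 (Hs6st, 146 bp).

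In signalling lists, which are short, several counts were above the share of all genes. Notch signalling had 7 of 21 (33.3%), against 3 with an IDR peak. They were Su(H), the coactivator gene mam (39.1), the targets E(spl)m3-HLH (32.7) and E(spl)m7-HLH (29.7), dx (32.3), the protease gene kuz (30.7) and numb (28.0). The nearest TSS at the mam site was that of RN-tre (229 bp), and at the kuz site that of B4 (241 bp). The dx site also counted for RpL7A. EGFR and MAPK signalling had 6 of 22 (27.3%), with the ligand gene Krn at 35.2 and the secreted inhibitor gene aos at 30.8. Insulin and TOR signalling had 5 of 20, with Sin1, a TORC2 subunit gene, at 33.9 and the transcription factor gene foxo at 32.2. Ecdysone response genes had 4 of 15, with Eip63E at 33.8 and Eip75B at 30.1. Wnt signalling had 4 of 20, with nkd (35.0) and fz3 (33.6), Hippo signalling 3 of 16, with scrib (36.5) and dlg1 (30.1), and JAK-STAT signalling 2 of 10, Stat92E (35.0) and upd3 (27.3). The JNK and apoptosis list had 2 of 23, p53 (31.6) and kay (27.9).

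Chromatin and stress lists lay near or above the share of all genes, and cuticle and digestive lists below it. Boundary and promoter factor genes had 4 of 17, psq (34.6), CTCF (27.0348) and the neighbours Ibf1 and Ibf2, which share a site. Polycomb group genes had 3 of 19 (Caf1-55, 39.2; pho, 34.0), heat shock and chaperone genes 3 of 27 (Droj2, 38.9; Hsc70-4, 36.1) and lipid storage genes 2 of 15 (ACC, 36.4; Agpat3, 33.9). Cuticle protein genes had 4 of 121 (3.31%), with Cpr62Ba at 34.9 and Cpr23B at 33.1, and 0 with an IDR peak. Digestive enzyme genes had 1 of 39, lambdaTry at 26.3. Hox genes had 0 of 8 and the segmentation and patterning list 0 of 18, lists too short to set against the 10.5% of all genes. An IDR peak was at 1 of the 8 Hox genes and at 0 of the 18. The nearest TSS at the ACC site was that of Nup44A (432 bp), and at the Cpr23B site that of CG3119 (50 bp).

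**Figure D5:**
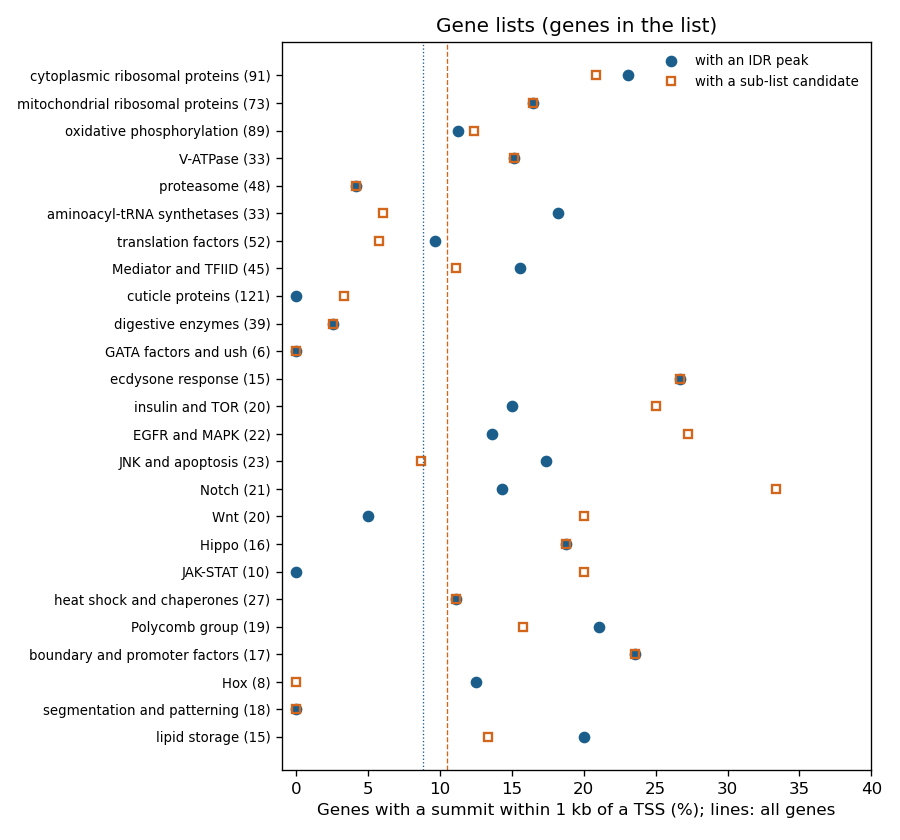
Share of genes (percent, x axis) with an IDR summit (filled circles) or a sub-list summit (open squares) within 1 kb of a TSS in 25 gene lists (y axis, number of genes in brackets); vertical lines give the shares of all genes, 8.78% dotted and 10.5% dashed. Notch, EGFR and insulin lists have more genes with a sub-list candidate than with an IDR peak, and the aminoacyl-tRNA synthetase list fewer, with no test on any list.

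No GATA gene had a sub-list candidate within 1 kb of a TSS. Within 5 kb of the gene, pnr, which acts in the heart and the dorsal midline, had 1 of 30.4 (3R, 16024770 to 16025153), 1117 bp from a TSS, with 16.0 in replicate 2 (rank 5862) and 8.93 in replicate 3 (rank 14326). The srp, grn and GATAe genes had candidates under 25 alone, with best signals of 17.0, 22.5 and 24.1, and GATAd had none. The cofactor gene ush, whose product binds GATA factors, had 3 sub-list candidates beside 2 IDR peaks. The one in its intron at 512025 to 512408 on 2L had 41.3, with 11.5 in replicate 2 (rank 18405) and 36.4 in replicate 3 (rank 523). The other 2, of 39.6 and 27.0, lay nearer to a TSS of cbt, and replicate 2 had no candidate at either.

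Some genes gathered several sub-list candidates. Within the gene or 5 kb of its TSSs, 301 genes had 3 or more and 56 had 5 or more. CG32264 (3L, 91634 bp long) had 13, of which 10 were in introns and 8 had a candidate in both replicates. CG1677 (X) had 11, Svil, which encodes an actin-binding protein of the supervillin family, had 10, and CG43658 had 9. Eip75B, an ecdysone-induced nuclear receptor gene, had 9 with 3 IDR peaks within 5 kb, while hth, the gene of a Hox cofactor, had 9 with 0 IDR peaks. Fur1, a furin protease gene, and Eip63E, a cyclin-dependent kinase gene, had 9 each. Pdp1, a bZIP factor gene, had 8, with 1 IDR peak. Gene length was not adjusted for, and a site can count for several neighbouring genes.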

How the data were processed

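Chromatin immunoprecipitation was sequenced for 2 replicates of GATAd-GFP larvae, and the deposited files are 8 peak lists, 4 on each of dm6 and dm3. Candidates, per the records deposited with the lists, were called for each replicate and for the pool against a control, and the optimal IDR list derives from these 3. The sources used here do not give the aligner, the peak caller or the IDR threshold. The deposited signal is enrichment per peak on a scale not stated, and the deposited score per peak was not used.

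Candidates were matched by an overlap of at least 1 bp, taking the nearest summit, with Python 3.11.15, pandas 2.3.3, scipy 1.17.1 and statsmodels 0.14.6. Protein-coding genes came from Ensembl release 115 on the same assembly and sequence from RefSeq; 0 peaks ran past an arm. Position classes were taken in the order promoter, 5' UTR, 3' UTR, coding exon, intron, intergenic. Shares were compared with two-sided Fisher's exact tests, Mantel-Haenszel tests and exact McNemar tests, with Benjamini-Hochberg adjustment in each family and a threshold of 0.05. Code was tested on simulated data.

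The sites, lists and words were chosen with earlier results of these data known. 8 symbols matched no gene. Named sites are the 25 strongest, the 2 strongest of each gene list, the GATA genes and ush, both edges, the best worse replicate ranks, those missing from 1 list, the strongest with words, and genes with most sites. The 4 sites in neither list, the remaining Notch genes and the 3 weakest IDR peaks were added after their values were seen. After the data were seen, 2 name patterns that caught genes other than digestive enzymes were dropped from that list.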

Additional observations from a re-analysis of the deposited data

How the results depend on the processing

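Of 116 alternative values over 16 results, 94 kept their direction and their side of the threshold or stayed near the reported value, and 0 reversed. With a signal threshold of 20 there were 7708 sites and with 30 there were 1278, with a candidate in both replicates for 57.4% and 83.1%, and 2591 and 837 genes; the dm3 lists, whose signal need not share the scale, gave 1867 sites. An overlap of 50% of the narrower peak lowered presence in both to 68.1%. Genes numbered 836 within 250 bp of a TSS and 3540 within 5 kb. For WGATAR against IDR peaks the odds ratio was 0.968 at 30, 0.886 over GC groups and 0.896 with windows of 200 bp; for DRE it was 0.715 at 30 and 0.613 with windows of 50 bp; for the X share it was 0.691 at 20, 0.955 at 30 and 0.799 without sites within 1 kb of an IDR summit. With 1 replicate alone, in the same band of ranks, WGATAR against IDR peaks ranged from 0.662 to 0.888, the X share from 0.629 to 0.764, introns against weaker candidates from 0.716 to 0.943 and WGATAR against flanks from 1.05 to 1.35. In these comparisons the IDR peaks remained the list from both replicates. Genes were 1046 with replicate 2 alone and 1636 with replicate 3 alone, an alternative added after seeing the data. The sets differ in size and GC content between replicates, and the cause of these changes was not tested. Depth is unknown. No paired analysis was possible because there is 1 group.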
